A study of Mus musculus with 12 samples.

Results

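The NADPH oxidase genes of epithelium and phagocytes were followed in mouse colon after chemical injury. The set holds 9 genes chosen by name, Duox2, Duoxa2, Nox1, Noxo1, Noxa1, Cybb, Cyba, Ncf1 and Ncf4, and all 9 were found among the 19938 genes measured, each with 1 probe set. Expression was measured in the colon of 12 male wild-type C57BL/6 mice, 7 weeks old at the start and 8 weeks and 3 days old at sampling by their labels, each on its own array, in 4 groups of 3. DSS+L-Arg mice drank 4% dextran sulfate sodium (DSS), a polysaccharide that injures the colonic epithelium, for 6 days and then 1% L-arginine (L-Arg) for 4 days. DSS mice drank DSS and then water over the same days. Control+L-Arg mice received L-Arg in place of water for the last 4 days without DSS, and control mice received neither agent. All mice were killed on day 10, so the DSS groups were sampled 4 days after DSS had been withdrawn. Each value below is a log2 signal, on which a difference of 1 is a 2-fold difference. Each RNA came from a proximal and a distal piece of colon combined, with all their cell types, in which a change in the number of cells of a type and a change in RNA per cell cannot be told apart.

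NADPH oxidases are membrane enzymes that take electrons from NADPH and pass them to oxygen, which gives superoxide or hydrogen peroxide. DUOX2 and NOX1 are the forms of the intestinal epithelium, where they act in defense at the mucosal surface and in repair. The form encoded by Cybb is that of neutrophils and macrophages, which use it to kill ingested microbes, and loss of its subunits causes chronic granulomatous disease in humans.

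Duox2 and its maturation factor Duoxa2 lie next to each other on chromosome 2 and are read in opposite directions from a shared stretch, with 672 bases between their RefSeq transcript starts in build GRCm38.p6. The 250 bases upstream of each start are shown because these genes moved together in the arrays, and those of Cybb and Ncf1 because they represent the phagocyte enzyme. The sequences are from RefSeq, 5′ to 3′ on the strand of the gene, and the capitals mark matches to the motifs named after them.
Duox2, chr2:122298228-122298477, minus strand: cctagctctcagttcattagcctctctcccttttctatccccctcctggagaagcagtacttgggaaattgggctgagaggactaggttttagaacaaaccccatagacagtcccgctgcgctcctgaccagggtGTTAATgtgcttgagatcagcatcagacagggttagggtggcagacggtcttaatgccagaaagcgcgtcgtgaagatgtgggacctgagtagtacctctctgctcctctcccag
Duoxa2, chr2:122298650-122298899, plus strand: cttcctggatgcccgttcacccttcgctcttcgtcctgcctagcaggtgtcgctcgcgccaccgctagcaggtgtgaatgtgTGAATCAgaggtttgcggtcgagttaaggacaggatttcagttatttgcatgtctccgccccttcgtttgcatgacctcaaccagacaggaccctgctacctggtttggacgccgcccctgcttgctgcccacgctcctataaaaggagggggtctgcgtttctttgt
Cybb, chrX:9469325-9469574, minus strand: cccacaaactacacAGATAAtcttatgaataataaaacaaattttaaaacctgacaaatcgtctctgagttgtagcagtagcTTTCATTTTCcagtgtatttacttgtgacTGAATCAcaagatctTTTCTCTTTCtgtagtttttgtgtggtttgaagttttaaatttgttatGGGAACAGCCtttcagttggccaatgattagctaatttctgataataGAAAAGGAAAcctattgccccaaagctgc
Ncf1, chr5:134229626-134229875, minus strand: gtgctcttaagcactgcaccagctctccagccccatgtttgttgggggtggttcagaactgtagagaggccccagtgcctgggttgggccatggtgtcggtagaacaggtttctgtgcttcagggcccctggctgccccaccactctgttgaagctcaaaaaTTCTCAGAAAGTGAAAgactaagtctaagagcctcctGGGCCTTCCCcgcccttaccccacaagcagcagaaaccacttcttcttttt
Entries were found for 8 of the 9 genes, all but Ncf4. Matches were sought on both strands, and each share is that of 32851 promoters of this length. The motif of STAT factors was TTCNNNGAA, held by 7.02% of promoters, and among the 8 stretches it matched in that of Ncf1. The AP-1 motif was TGANTCA, held by 6.75%, and it matched in those of Duoxa2 and Cybb. The interferon response element was sought as a pair of identical blocks, GAAA, with 2 bases between them, which 2.98% of promoters hold. It matched 3 times in the Cybb stretch and once in that of Ncf1, where it overlapped the STAT match. The core of the HNF1 motif was GTTAAT, held by 6.43%. It matched in the stretches of Nox1 and Duox2, and in that of Duox2 no other of these motifs did. The motif of GATA factors was AGATAA, held by 9.99%, with matches in the stretches of Noxa1, Cyba and Cybb. The NF-kB motif, sought by its beginning GGGAA and the CC that closes it after 3 further bases, was held by 4.94% and matched in the stretches of Nox1, Noxa1, Cybb and Ncf1, while its form with GGGAC (4.51%) matched in none of the 8. The motif of PU.1 and other ETS factors was GAGGAA, held by 23.3%, and matched only in the Nox1 stretch among the 8. A match describes letters in this window and no binding was measured.

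The arrays had like distributions, with medians over all probe sets between 6.49 and 6.64. Markers of the labelled tissue were present, and the median of 21 colonic epithelium markers stayed within 0.11 of the control mean in every array. With DSS 1 of the 21 was called lower, where 2.23% of all genes were. This was Car4 (a carbonic anhydrase), which fell by 0.58 (adjusted p = 0.0106 from limma). The median of 19 measured neutrophil markers was 0.18 to 0.52 above the control mean in DSS+L-Arg mice, 1.43 to 4.11 in DSS mice, -0.07 to 0.06 in control+L-Arg mice and -0.21 to 0.38 in control mice. The array of DSS mouse 3 stood highest, at 4.11. None of 12 smooth muscle markers was called with DSS, but all 12 had a lower mean than in control, and their median relative to control was -1.06 to -0.27 in DSS+L-Arg mice and -1.32 to -0.66 in DSS mice, against -0.69 to 1.08 in control+L-Arg mice and -0.42 to 0.71 in control mice. The part of these markers in the results below was not tested, beyond fits with the smooth muscle median or the posterior Hox median as a covariate.

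**Figure D1:**
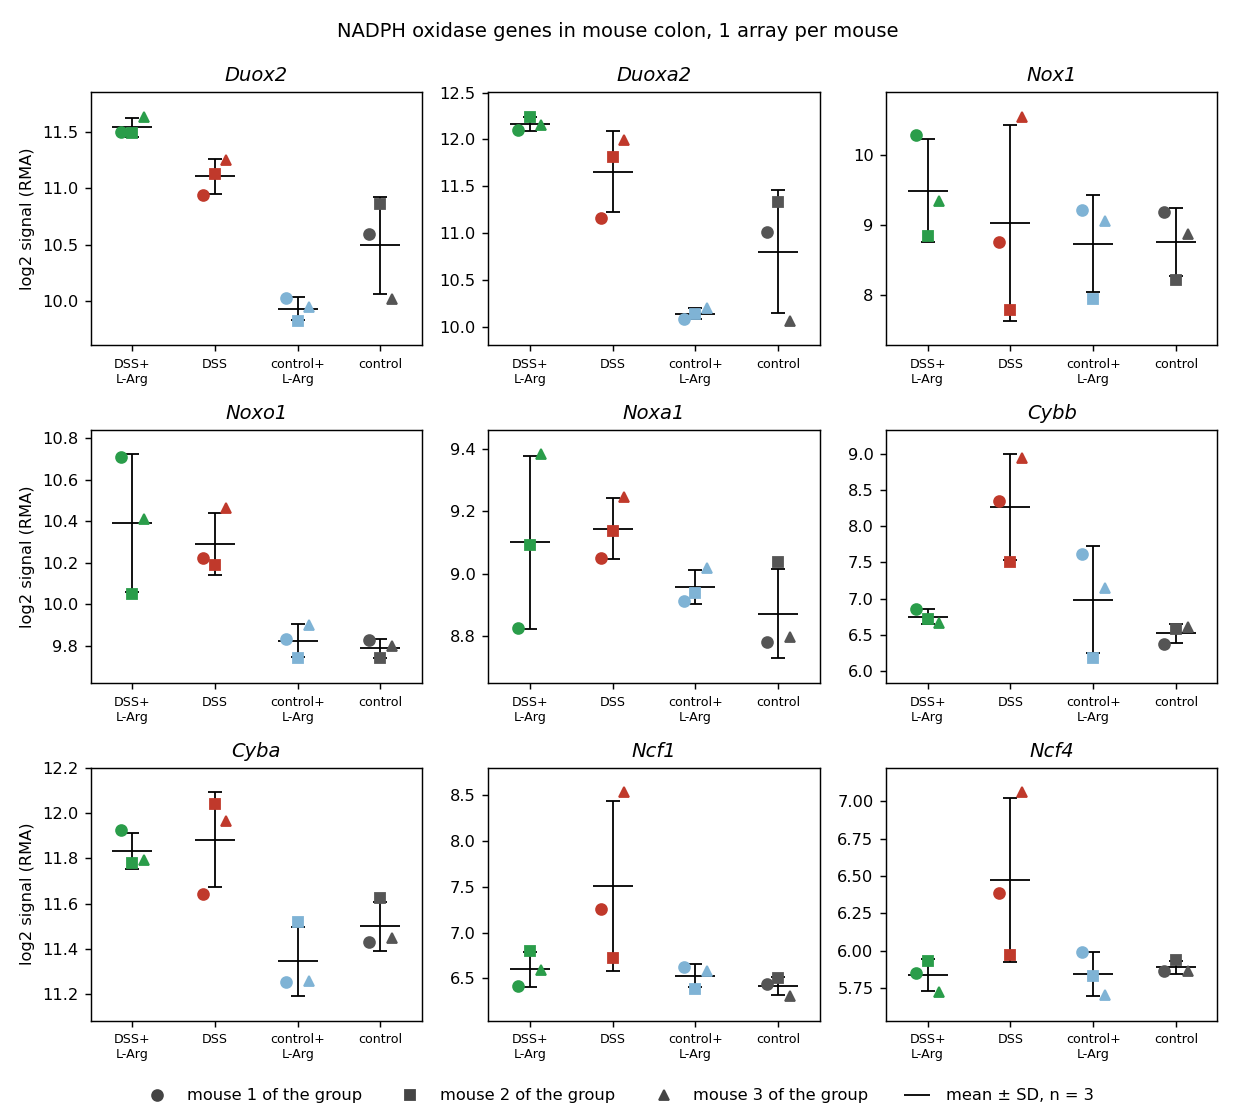
Log2 signal (y axis, a separate scale in each panel that does not start at 0) of the 9 oxidase genes in the 4 groups (x axis), each symbol 1 mouse and each bar the mean ± SD of 3 mice. Duox2 and Duoxa2 are highest in DSS+L-Arg mice and Cybb, Ncf1 and Ncf4 in DSS mice.

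In the comparison of DSS with control colon, which asks what injury did, Cybb was the gene that rose. Cybb encodes the catalytic subunit of the phagocyte oxidase. Its log2 signal was 8.35, 7.50 and 8.94 in DSS mice 1, 2 and 3, against 6.37, 6.59 and 6.61 in control mice. Every DSS mouse lay above every control mouse, and DSS mouse 3 was the highest. The log2 difference was 1.74 (SE 0.36, 95% interval 0.94 to 2.54), a fold of 3.34, with an adjusted p = 0.0247 from limma. Of the 9 genes 1 was called higher at an adjusted p under 0.05 and 0 lower, where 1.80% of all 19938 genes were called higher and 2.23% lower. The thresholds of the study are an unadjusted p under 0.01 and a fold over 2, applied here to the p from limma where the study used SAM. By these, 2 of the 9 genes (Cybb and Ncf1) were higher, where 1.32% of all genes were. The Cybb difference was 1.40 with an adjusted p = 0.0546 without DSS mouse 3, and the adjusted p was 0.0944, 0.061 and 0.0869 without control mouse 1, 2 or 3. It was 0.0801 when only these groups were fitted, 0.0556 with a smooth muscle covariate, 0.137 by SAM, the test the study names, and 0.503 by the unequal-variance test. These 2 tests called 0 of all 19938 genes in this and in each of the other 5 comparisons between groups. With 3 mice per group SAM has only 20 label orders, and its adjusted p could not fall under 0.05 for any gene. Its 0 calls therefore decide nothing.

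Ncf1 and Ncf4, which encode cytosolic subunits of the phagocyte oxidase, had higher means with DSS and did not pass. Ncf1 encodes the organizer that brings the cytosolic complex to the membrane. Its log2 signal was 7.26, 6.73 and 8.53 in DSS mice, against 6.44, 6.50 and 6.31 in control mice. All DSS values lay above the control values, with DSS mouse 2 nearest to them and DSS mouse 3 far above the others. The difference was 1.09 (SE 0.34), a fold of 2.13, with an adjusted p = 0.094. Ncf4, a subunit that binds a membrane lipid, measured 6.39, 5.98 and 7.06 in DSS mice, against 5.87, 5.94 and 5.86 in control mice. Again the values of DSS mouse 2 lay close to control and those of DSS mouse 3 were highest. The Ncf4 difference was 0.58 (SE 0.21, adjusted p = 0.146). Ncf4 was a dim gene, with a control mean of 5.89 where the 30th percentile of all values was 5.892. Without DSS mouse 2 both genes passed, Ncf1 with 1.48 (adjusted p = 0.0235) and Ncf4 with 0.83 (adjusted p = 0.0326). Without DSS mouse 3 the differences were 0.58 (adjusted p = 0.0798) for Ncf1 and 0.29 (adjusted p = 0.259) for Ncf4. Ncf1 also passed with array weights (0.94, adjusted p = 0.0417). Their values followed the order of the neutrophil marker median in the DSS mice, which was 1.83, 1.43 and 4.11 in mice 1, 2 and 3. Those of Cybb and of the epithelial genes Nox1 and Noxo1 had this order too, while those of Duox2, Duoxa2, Noxa1 and Cyba did not.

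Cyba encodes the membrane partner that stabilizes the catalytic subunits of both the phagocyte enzyme and NOX1. Its log2 signal was 11.64, 12.04 and 11.96 in DSS mice, against 11.43, 11.62 and 11.45 in control mice. The groups did not overlap, but DSS mouse 1 exceeded control mouse 2 by little. The difference was 0.38 (SE 0.12, 95% interval 0.12 to 0.65, adjusted p = 0.101), with 0.50 (adjusted p = 0.0264) without DSS mouse 1 and 0.25 (adjusted p = 0.395) with the smooth muscle covariate. DSS mouse 1 was the lowest of its group in Cyba, while in Cybb that was DSS mouse 2.

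Among the epithelial genes none passed for DSS versus control, although their means were all higher. DUOX2 makes hydrogen peroxide at the apical surface of epithelial cells. Duox2 measured 10.94, 11.12 and 11.25 in DSS mice, against 10.59, 10.86 and 10.02 in control mice, with no overlap. The difference was 0.61 (SE 0.18, adjusted p = 0.0774), with 0.80 (adjusted p = 0.0355) without control mouse 2 and 0.38 (adjusted p = 0.2) without control mouse 3, the lowest control. Duoxa2, whose product DUOX2 needs to leave the endoplasmic reticulum, measured 11.17, 11.81 and 11.99 in DSS mice, against 11.01, 11.33 and 10.06 in control mice. DSS mouse 1 lay below control mouse 2. The difference was 0.85 (SE 0.28, adjusted p = 0.115), with 1.10 (adjusted p = 0.0418) without DSS mouse 1 and 0.49 (adjusted p = 0.31) without control mouse 3. With the smooth muscle covariate it was 0.57 (adjusted p = 0.426).

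Noxo1 encodes the organizer of the NOX1 complex, the epithelial counterpart of Ncf1. Its log2 signal was 10.22, 10.19 and 10.46 in DSS mice, against 9.83, 9.74 and 9.80 in control mice. The values within each group lay close together and the groups were apart. The difference was 0.50 (SE 0.14, 95% interval 0.19 to 0.82) with an adjusted p = 0.0771, and the gene passed with a further quantile normalization (0.0458) with a posterior Hox covariate (0.0315), and without DSS+L-Arg mouse 1 (0.0398) or 2 (0.0356). Noxa1, which encodes the activator subunit of the same complex, measured 9.05, 9.14 and 9.24 in DSS mice, against 8.78, 9.04 and 8.80 in control mice. The lowest DSS value was next to the highest control value, and the difference of 0.27 did not pass (SE 0.13, adjusted p = 0.285).

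Nox1, the catalytic subunit of the epithelial enzyme, varied more within groups than between them. It measured 8.76, 7.78 and 10.55 in DSS mice, against 9.18, 8.22 and 8.87 in control mice. The DSS mice held both the highest and the lowest value of the 12 arrays. The difference was 0.27 (SE 0.62, adjusted p = 0.869), and its 95% interval of -1.08 to 1.63 left room for changes in either direction. Without DSS mouse 3 it was -0.48 (adjusted p = 0.654). Across the 9 genes, 7 had all DSS values above all control values, all but Duoxa2 and Nox1, where 10.7% of all genes did. The median difference of the 9 genes was 0.58 and that of all genes -0.01.

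**Figure D2:**
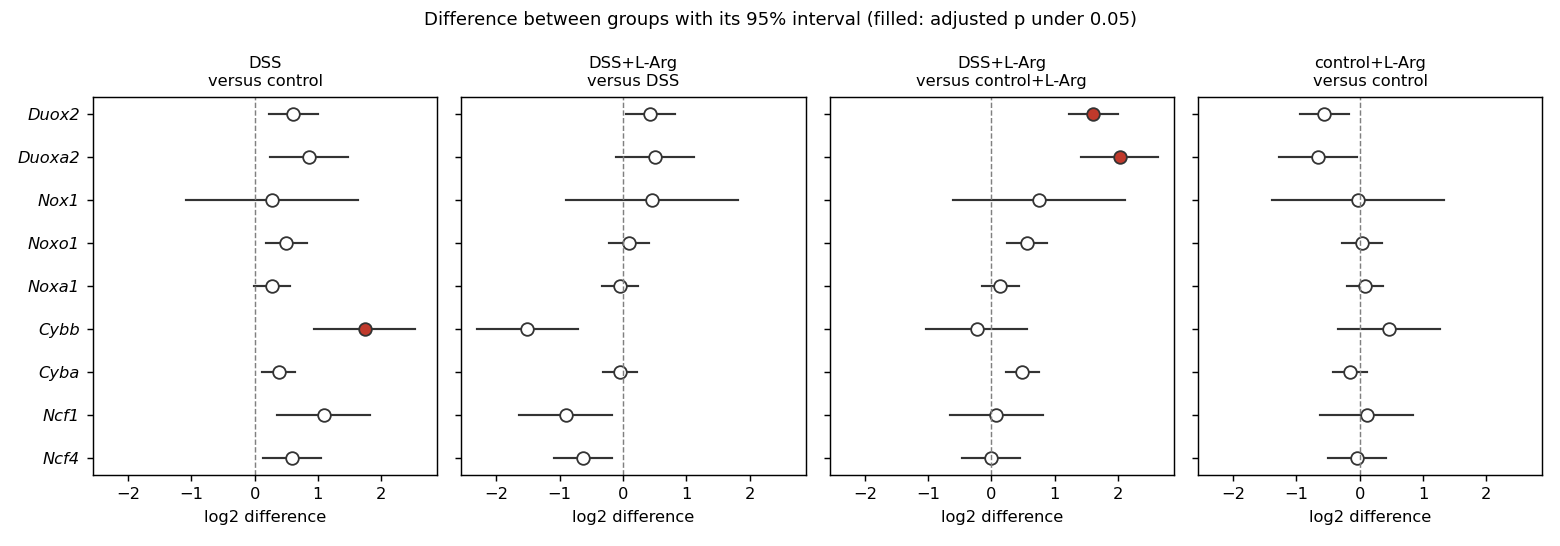
Log2 difference between group means (x axis) of each oxidase gene (y axis) in 4 comparisons, with points for the limma estimate, bars for its 95% interval, and filled points where the adjusted p was under 0.05. Filled points are Cybb for DSS against control, and Duox2 and Duoxa2 for DSS+L-Arg against control+L-Arg.

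The comparison of DSS+L-Arg with DSS colon asks what L-Arg did after injury. None of the 9 genes was called, where 0.115% of all genes were called higher and 0.522% lower. At an unadjusted p under 0.05, 1 gene was higher and 3 were lower, where 7.99% and 5.53% of all genes were. The means of the phagocyte and the DUOX2 genes lay on opposite sides. Cybb was 6.86, 6.73 and 6.67 in DSS+L-Arg mice, against 8.35, 7.50 and 8.94 in DSS mice. The DSS+L-Arg values were close together and all below the DSS values. The difference was -1.51 (SE 0.36, 95% interval -2.31 to -0.71, adjusted p = 0.108), or 0.351-fold, which met the thresholds of the study as 0.843% of all genes did in this direction. It passed without DSS mouse 2 (-1.89, adjusted p = 0.0367) and without control+L-Arg mouse 2 (adjusted p = 0.0473). Both comparisons use the same DSS arrays, so the values of Cybb in them are not independent.

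Ncf1 was 6.42, 6.80 and 6.59 in DSS+L-Arg mice, against 7.26, 6.73 and 8.53 in DSS mice, and the groups overlapped at DSS mouse 2. The difference was -0.90 (SE 0.34, adjusted p = 0.278). Ncf4 was 5.85, 5.94 and 5.72 in DSS+L-Arg mice, against 6.39, 5.98 and 7.06 in DSS mice, with DSS mouse 2 just above the DSS+L-Arg mice. The Ncf4 difference was -0.64 (SE 0.21, adjusted p = 0.228). Without DSS mouse 3 the differences were -0.39 for Ncf1 and -0.34 for Ncf4 (adjusted p = 0.293 and 0.258). Of 21 measured monocyte and macrophage markers, 14 were called higher with DSS, where 1.80% of all genes were. In DSS+L-Arg versus DSS colon 7 of the 21 were called lower, where 0.522% of all genes were. The median of these markers relative to control was 0.19 to 0.30 in DSS+L-Arg mice, 1.03 to 1.47 in DSS mice, -0.02 to 0.62 in control+L-Arg mice and -0.06 to 0.07 in control mice. Cybb and this median were both highest in DSS mouse 3, but DSS mouse 2, with the lowest Cybb of its group, had a marker median of 1.34. Of 9 measured B cell markers 0 were called in these comparisons. Their median relative to control was -0.13 to 0.11 in DSS+L-Arg mice and -0.20 to 0.43 in DSS mice. It was -0.13 to 0.58 in control+L-Arg mice and -0.08 to 0.03 in control mice. In each group but control, the mouse lowest in Cybb was also lowest in this median. The part of cell numbers in the Cybb, Ncf1 and Ncf4 differences was not tested.

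Duox2 and Duoxa2 had higher means after L-Arg than after DSS alone, without passing. Duox2 measured 11.50, 11.49 and 11.63 in DSS+L-Arg mice, against 10.94, 11.12 and 11.25 in DSS mice. All 3 DSS+L-Arg mice lay above the highest DSS mouse. The difference was 0.43 (SE 0.18, 95% interval 0.05 to 0.82, adjusted p = 0.317). Duoxa2 was 12.10, 12.24 and 12.15 in DSS+L-Arg mice, against 11.17, 11.81 and 11.99 in DSS mice, also without overlap. Its difference was 0.51 (SE 0.28, 95% interval -0.11 to 1.12, adjusted p = 0.453), and 0.26 (adjusted p = 0.666) without DSS mouse 1, the lowest of the DSS mice. For each of these genes the DSS+L-Arg mice held the highest 3 values of the 12 arrays. Of the 9 genes, these 2 had all DSS+L-Arg values above all DSS values, as 11.0% of all genes did, and Cybb and Ncf4 had them all below, as 5.60% did.

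For the other members no difference could be told from the spread between mice. Noxo1 was 10.71, 10.05 and 10.41 in DSS+L-Arg mice, against 10.22, 10.19 and 10.46 in DSS mice (difference 0.10, 95% interval -0.22 to 0.42). Noxa1 was 8.83, 9.09 and 9.38 in DSS+L-Arg mice, against 9.05, 9.14 and 9.24 in DSS mice (-0.04, 95% interval -0.33 to 0.24). Cyba was 11.92, 11.78 and 11.79 in DSS+L-Arg mice, against 11.64, 12.04 and 11.96 in DSS mice (-0.05, 95% interval -0.31 to 0.21). In these 3 genes the groups overlapped. Nox1 was 10.29, 8.83 and 9.34 in DSS+L-Arg mice, against 8.76, 7.78 and 10.55 in DSS mice, and its difference of 0.46 had an interval of -0.90 to 1.82.

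The effect of DSS among mice given L-Arg is read from DSS+L-Arg colon set against control+L-Arg colon, and there the DUOX2 pair rose. Duox2 was 11.50, 11.49 and 11.63 in DSS+L-Arg mice, against 10.03, 9.83 and 9.95 in control+L-Arg mice. The groups were far apart and each was tight. The difference was 1.61 (SE 0.18, 95% interval 1.22 to 1.99), a fold of 3.04, with an adjusted p = 0.0123 from limma. Duoxa2 measured 12.10, 12.24 and 12.15 in DSS+L-Arg mice, against 10.08, 10.13 and 10.20 in control+L-Arg mice, a difference of 2.02 (SE 0.28), a fold of 4.07 (adjusted p = 0.0352). These 2 genes were called higher, as 0.201% of all genes were, and 0 of the 9 genes was called lower, as 0.105% were. The pair is 1 locus and counts as 2 genes. The calls depended on single arrays. Leaving out control+L-Arg mouse 1 or 3, or DSS+L-Arg mouse 1 or 3, gave adjusted p values of 0.0719, 0.123, 0.0724 and 0.0964 for Duox2 and 0.115, 0.149, 0.0839 and 0.147 for Duoxa2, with differences of 1.56 to 1.65 and 2.00 to 2.06. Without DSS+L-Arg mouse 2 the Duoxa2 adjusted p was 0.0806. With the smooth muscle covariate the differences were 1.43 and 1.72 (adjusted p = 0.139 and 0.283). By SAM the adjusted p was 0.1 for both, the lowest that it could give with 3 mice per group. By the unequal-variance test it was 0.278 for Duox2 and 0.0936 for Duoxa2.

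Noxo1 and Cyba also lay apart in this comparison without passing. Noxo1 was 10.71, 10.05 and 10.41 in DSS+L-Arg mice, against 9.83, 9.74 and 9.90 in control+L-Arg mice, a difference of 0.57 (SE 0.14, adjusted p = 0.117). Cyba was 11.92, 11.78 and 11.79 in DSS+L-Arg mice, against 11.25, 11.52 and 11.26 in control+L-Arg mice, a difference of 0.49 (SE 0.12, adjusted p = 0.108). With Duox2 and Duoxa2, 4 of the 9 genes had all DSS+L-Arg values above all control+L-Arg values, where 12.9% of all genes did. Cybb was 6.86, 6.73 and 6.67 in DSS+L-Arg mice, against 7.62, 6.18 and 7.15 in control+L-Arg mice. The control+L-Arg mice were spread on both sides, and the difference was -0.23 (SE 0.36, adjusted p = 0.802). Nox1, Noxa1, Ncf1 and Ncf4 overlapped between these groups, with differences of 0.75, 0.14, 0.07 and -0.01.

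Without injury, L-Arg left no called gene among the 9 or among all 19938 genes (0% in each direction). At an unadjusted p under 0.05 from limma 2 of the 9 genes were lower, Duox2 and Duoxa2, where 2.11% of all genes were, and 0 were higher, where 1.33% were. Duox2 measured 10.03, 9.83 and 9.95 in control+L-Arg mice, against 10.59, 10.86 and 10.02 in control mice. Control mouse 3, at 10.02, was just below control+L-Arg mouse 1. Between mice of the same number, which no label pairs, the Duox2 differences were -0.57, -1.04 and -0.07 and those of Duoxa2 were -0.93, -1.20 and 0.14. The difference was -0.56 (SE 0.18, adjusted p = 0.999), and that of Duoxa2 was -0.66 (SE 0.28, adjusted p = 0.999). With the mouse number as a block in these groups alone the adjusted p values from limma were 0.614 and 0.615. Duoxa2 in control mouse 3, at 10.06, was just below the lowest control+L-Arg mouse, at 10.08. The differences of the other 7 genes lay between -0.16 for Cyba and 0.46 for Cybb.

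The 2 effects of L-Arg were compared by their interaction, the difference with DSS minus that without. For Duox2 the interaction was 0.99 (SE 0.25, 95% interval 0.45 to 1.54, adjusted p = 0.182) and for Duoxa2 1.17 (SE 0.40, adjusted p = 0.334). For Cybb it was -1.97 (SE 0.52, 95% interval -3.10 to -0.84, adjusted p = 0.202). None of the 9 genes passed, where 0.0100% of all genes did upward and 0.0652% downward. Cybb was called here (-2.38, adjusted p = 0.044) without control+L-Arg mouse 2, the mouse with the lowest Cybb of all 12.

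DSS+L-Arg colon was also compared with untreated control colon, where the DUOX2 pair had the largest mean differences of the 9 genes. In DSS+L-Arg versus control colon, Duox2 was 1.05 higher (SE 0.18, adjusted p = 0.0809) and Duoxa2 1.36 higher (SE 0.28, adjusted p = 0.115), and neither passed. Both met the thresholds of the study, as 0.196% of all genes did upward. Noxo1 was 0.60 higher without overlap (adjusted p = 0.156), and the differences of Ncf1 and Ncf4 were 0.19 and -0.05. In all 5 of the 9 genes had every DSS+L-Arg value above every control value, Cybb by as little as 6.67 against 6.61, where 13.5% of all genes did. No gene was called here, while 0.0301% of all genes were called higher and 0.0351% lower. In DSS versus control+L-Arg colon, Duox2 (1.17, adjusted p = 0.00857), Duoxa2 (1.52, adjusted p = 0.0185) and Cyba (0.54, adjusted p = 0.0346) were called higher, where 1.99% of all genes were, and 0 of the 9 lower, where 1.69% were. Cybb had a higher mean here too (1.28, SE 0.36, adjusted p = 0.0767 from limma), but the groups overlapped and it was not called. The DSS arrays and the control+L-Arg arrays in this comparison are those used above. The Cyba call was lost in 15 of the 24 alternatives and those of Duox2 and Duoxa2 in 3 and 7, among them the smooth muscle covariate for each. SAM, which could call no gene, is also among them for each.

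The groups did not take the same order in every gene. For Duox2 it was DSS+L-Arg (11.54 ± 0.08), DSS (11.11 ± 0.16), control (10.49 ± 0.43) and control+L-Arg (9.93 ± 0.10, SD, n = 3 mice each), and of the neighbours only control and control+L-Arg overlapped. For Duoxa2 the order was the same and DSS overlapped control as well. For Noxo1 the order was DSS+L-Arg (10.39), DSS (10.29), control+L-Arg (9.82) and control (9.79), and the groups with and without DSS did not overlap. For Cybb it was DSS (8.26 ± 0.72), control+L-Arg (6.98 ± 0.73), DSS+L-Arg (6.75 ± 0.10) and control (6.52 ± 0.13), and DSS overlapped its neighbour through control+L-Arg mouse 1, at 7.62.

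**Figure D3:**
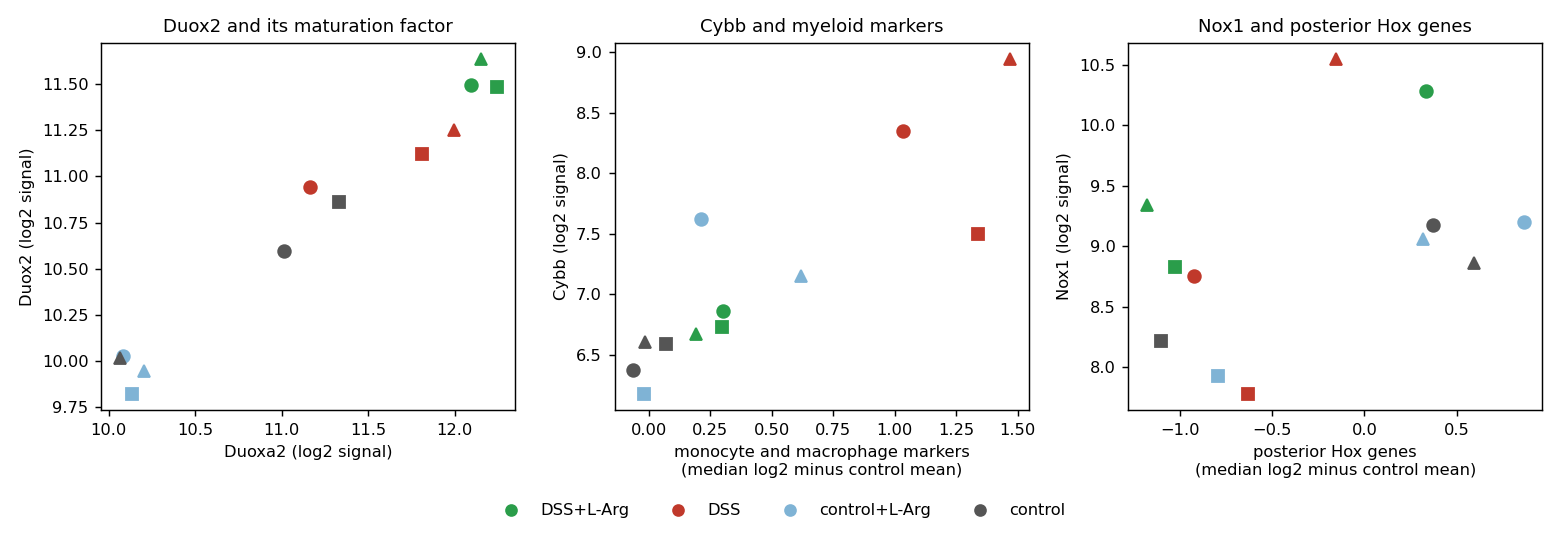
Log2 signal of Duox2 against Duoxa2, of Cybb against the median of monocyte and macrophage markers, and of Nox1 against the median of posterior Hox genes, each point 1 array, coloured by group and shaped by mouse number (circle 1, square 2, triangle 3). Duox2 and Duoxa2 lie along 1 line with the DSS+L-Arg arrays at its upper end, and Cybb is highest where the marker median is 1.47.

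The genes most like each leading member were found by Pearson's r over the 12 arrays among all genes, as a description with no test, since arrays of a group share treatment. The nearest gene to Duox2 was Duoxa2 (r = 0.986), followed by Mfsd2a, Itgav, Capn5 and Akap13 (0.934 to 0.945). After the group means were removed, Duox2 and Duoxa2 still had r = 0.914, while for the other 4 genes r lay between 0.450 and 0.634. The genes nearest to Cybb were Arhgdib, Cd53, Cd52, Nckap1l and Lcp1 (0.962 to 0.982), which are known as genes of blood cells. Those nearest to Nox1 were Plk1, Nde1, Cenpi, Kif23 and Pkp1 (0.950 to 0.956), of which Plk1, Nde1, Cenpi and Kif23 act in cell division. With the group means removed these 5 were at 0.951 to 0.961, pooled over all 12 arrays. They were picked by r on the same arrays and Nox1 varied mostly within groups. A high value was thus built in, and likeness inside any single group was not tested. The posterior Hox median, which marks position along the colon, was 0.33, -1.03 and -1.18 in DSS+L-Arg mice, -0.92, -0.63 and -0.16 in DSS mice, 0.86, -0.79 and 0.31 in control+L-Arg mice and 0.37, -1.10 and 0.59 in control mice. The mouse lowest in this median was also lowest in Nox1 in the control and control+L-Arg groups (mouse 2 in each), but not in the DSS+L-Arg or DSS groups. With that median as a covariate, Nox1 in DSS versus control was 0.70 (SE 0.48, adjusted p = 0.463).

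Some genes that work around the oxidases were called. Of 13 measured genes for other oxidases, maturation factors and activators, 1 was called, Vav1, an exchange factor upstream of RAC proteins in leukocytes. Vav1 rose with DSS (0.58, adjusted p = 0.0489) and fell by 0.81 in DSS+L-Arg versus DSS colon (adjusted p = 0.0359). No other gene of the list was called in either. Of all genes 1.80% were called higher with DSS and 0.522% lower in DSS+L-Arg versus DSS colon. Rac2, the RAC protein of the phagocyte enzyme, averaged 9.41 in DSS and 8.42 in control mice (0.99, SE 0.31, adjusted p = 0.097). Duox1 and Duoxa1, the neighbouring pair on chromosome 2, differed by 0.02 and 0.20 (adjusted p = 0.962 and 0.36), and Nox4 by 0.15 (adjusted p = 0.445). The median of this list was 0.14 with DSS.

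Of 9 measured enzymes that supply NADPH, Idh1 rose with DSS (0.77, SE 0.17, adjusted p = 0.0312) and 0 fell. Among 24 genes for enzymes that remove superoxide and peroxide, such as Sod2, catalase and the glutathione peroxidases, and among 4 peroxidase genes, 0 were called in either main comparison, where 1.80% and 2.23% of all genes were called higher and lower with DSS. Their medians with DSS were -0.02 and 0.03. Among the peroxidases, Mpo RNA averaged 6.15 in DSS and 6.16 in control mice (adjusted p = 0.968 from limma). By protein staining, the study counted more MPO-positive cells with DSS, and fewer where L-Arg followed it. RNA and protein are unlike measures here. Of 19 measured genes of microbe sensing and of the interferon, IL-17 and IL-22 pathways, a list that held receptors and cytokines as well as genes that such signals induce, 4 rose with DSS and 0 fell. These were Saa3 (4.38), Lcn2 (4.34), Nos2 (2.93) and Stat3 (0.56), of which Stat3 encodes a transcription factor of cytokine signalling. Saa3, Lcn2 and Nos2 are genes that inflammation induces, and Lcn2 is also a neutrophil gene. With L-Arg after DSS, Lcn2 fell by 3.70 and Saa3 fell by 3.15 (adjusted p = 0.00651 and 0.00536), where 0.522% of all genes were called lower. Nos2 differed by -0.55 (adjusted p = 0.699) and Stat3 by -0.16 (adjusted p = 0.6). The list was chosen with earlier results of these arrays known.

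**Figure D4:**
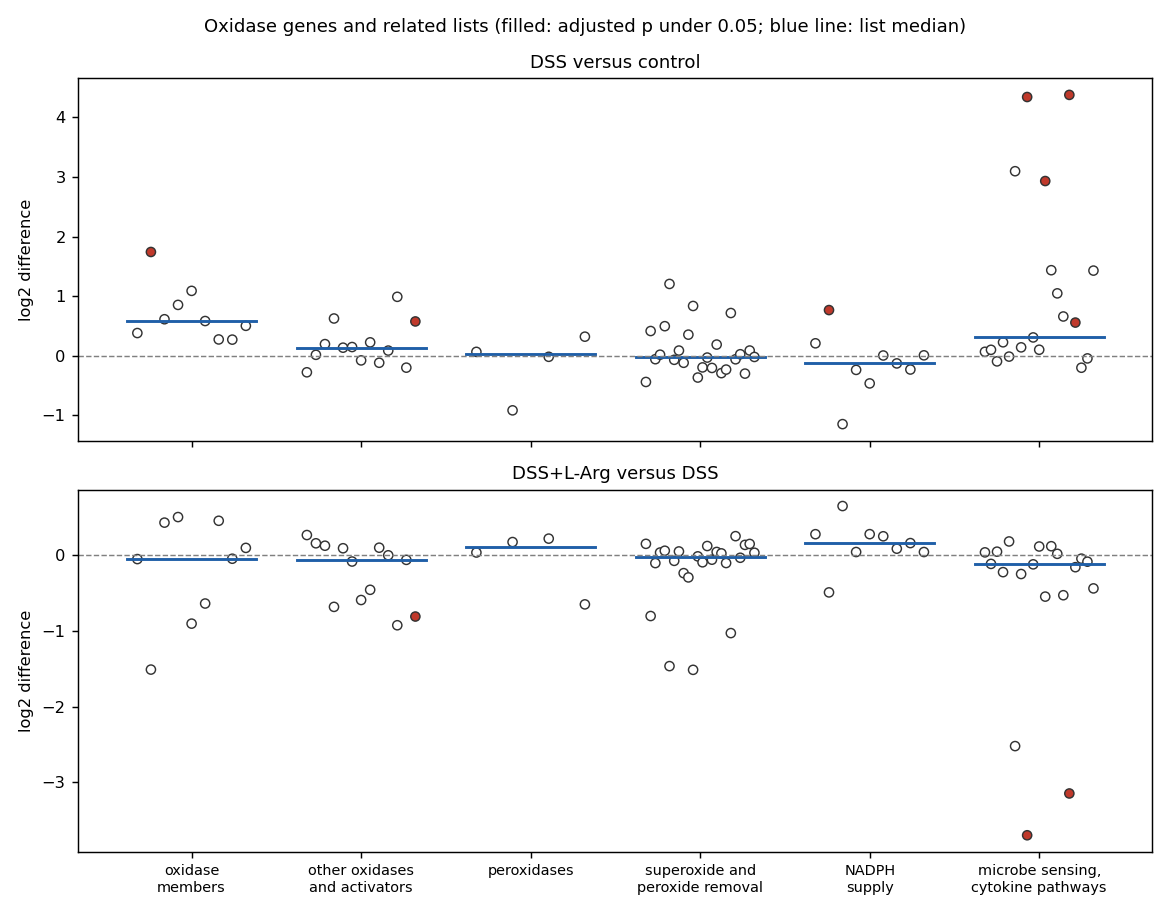
Log2 difference (y axis) of single genes in 6 lists (x axis) in the comparisons DSS versus control (top) and DSS+L-Arg versus DSS (bottom), each point 1 gene, filled where the adjusted p was under 0.05, with a blue line at the list median. With DSS the median of the 9 oxidase genes is 0.58, against -0.02 for the enzymes that remove superoxide and peroxide.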

How the data were processed

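RNA from the colon of 12 mice was measured on Affymetrix mouse Gene ST arrays, 1 per mouse. The authors made the values with Affymetrix Expression Console 1.1 and RMA, and the deposited values are log2 signals per probe set, corrected for background and quantile-normalized over the arrays, which removes any shift common to most genes. The submitters' processing notes name mm9. Precision is set by the 3 mice per group, since an array has no depth of reads.

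Of 35556 probe sets, 21789 listed with exactly 1 gene were kept (1621 had several and 12146 were not listed), with the brightest per gene, which gave 19938 genes, of which 19856 matched the reference gene table. Symbols came from the platform table and were updated through Entrez identifiers. Sequences and their coordinates are RefSeq's in GRCm38.p6, and no coordinate is given in mm9.

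All 12 arrays were fitted in limma 3.58.1 (R 4.3.3), with 1 mean per group (8 residual and 3.37 prior degrees of freedom), and 6 comparisons and the interaction were contrasts. The threshold for a call was 0.05 after Benjamini-Hochberg adjustment across the 19938 genes. The thresholds of the study were p under 0.01 and a fold over 2, applied here to the unadjusted p from limma. The study names SAM, which was run as an alternative with all 20 label orders. The observed order and its mirror are among these, so with 3 mice per group no adjusted p by SAM could fall under 0.05. The members, lists and comparisons were chosen with earlier results of these data known. All 9 members are named, and of the pathway lists the genes called in DSS versus control or in DSS+L-Arg versus DSS, with up to 4 per list, while cell type marker lists are given by counts and medians. A few other genes (Rac2, Duox1, Duoxa1, Nox4, Mpo and Car4) were named after their values were seen. Marker medians are the median over a list of each gene's log2 value minus its control mean. Listed genes without a probe set of 1 gene were not analysed here. The code of the fit was tried on simulated data, with independent noise of equal spread in all groups. In the arrays the spread was not equal, with an Ncf1 SD of 0.93 in DSS and 0.10 in control mice. The trial therefore cannot decide whether the calls hold. Figures were drawn with matplotlib 3.10.9.

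Arrays of a group differed by over 0.01 in at least 95.1% of genes, so no array repeats another. Mice carry the numbers 1 to 3 in every group, and no label says that a number pairs them. Between control+L-Arg and control, same-numbered mice deviated together from their group means (correlations of 0.205, 0.477 and 0.261 over all genes). Mice of unlike number could do so too, with 0.272 for control mouse 3 and control+L-Arg mouse 1. A block for the mouse number was also fitted to these groups alone, an alternative chosen after seeing the data. No other pair of groups had all 3 same-number correlations over 0.1.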

Additional observations from a re-analysis of the deposited data

How the results depend on the processing

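In DSS versus control, 1 gene was higher in limma with all arrays, and 2 at the thresholds of the study. The count was 2 as well with a further quantile normalization, array weights or a posterior Hox covariate. It was 0 with only the groups compared, a smooth muscle covariate, the unequal-variance test or SAM. SAM could call no gene in any comparison, as its adjusted p cannot fall under 0.05 with 3 mice per group. Leaving out 1 array gave 0 to 3, with 0 without control mouse 1, control mouse 3 or DSS mouse 3 and 3 without DSS mouse 1 or 2. Between DSS+L-Arg and control+L-Arg, 2 genes became 4 with array weights and 0 with the smooth muscle covariate, the unequal-variance test or SAM, and 0 to 2 with 1 array left out. In DSS versus control+L-Arg, the 3 genes were 1 with only the groups compared or with array weights, 0 with the smooth muscle covariate, the unequal-variance test or SAM, and 1 to 5 with 1 array left out, with 1 without control+L-Arg mouse 1 or 3 and 5 without DSS mouse 2. In DSS+L-Arg versus control, the 0 genes were 3 with array weights and 2 at the thresholds of the study. In DSS+L-Arg versus DSS, the 0 lower genes were 1 at the thresholds of the study and 0 to 1 with 1 array left out, and for the interaction likewise 1, and 0 to 1. A replicate block for the mouse number changed no count (1, 2 and 3 genes higher in the first 3 of these comparisons), and a block in control+L-Arg and control alone left 0 called. Single genes were refitted under each alternative in the DSS versus control and DSS+L-Arg versus DSS comparisons and where called elsewhere. Direction changed for 4 of them, in comparisons where they were not called. With 1 array left out, Nox1 in DSS versus control spanned -0.48 (without DSS mouse 3) to 0.90. In DSS+L-Arg versus DSS, Nox1 spanned -0.16 (without DSS mouse 2) to 1.22, Noxo1 -0.061 (without DSS+L-Arg mouse 1) to 0.27, Noxa1 -0.19 to 0.092 (above 0 without DSS+L-Arg mouse 1 or DSS mouse 3) and Cyba -0.17 to 0.030 (without DSS mouse 2). In the same comparison array weights gave 0.092 for Noxa1 and 0.033 for Cyba. The cause of these shifts was not tested. Averaging probe sets could not move a member's value, since each has 1 probe set, and all 9 passed the filter on dim genes.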
